A study of Ciona robusta with 6 samples.

Results

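The secreted frizzled-related genes of the tunicate Ciona robusta were examined in RNA from 3 parts of the adult heart. They were taken by symbol from the deposited gene table, which lists sfrp1/5, sfrp2 and sfrp3/4-b, so that 3 of its 793 genes are described. Hearts of wild caught adults, with no genetic change and no agent given, were divided into the contractile tube at the centre, called the cardiac tube (C), and the vessels that adjoin it at either end, the blood sinus on the pharyngeal side (PS) and that on the stomach side (SS). Each part was sequenced as 2 libraries of pooled pieces, 6 libraries in all. The study set these parts side by side to ask whether the vessels at both ends of the heart resemble each other. Pericardial cells had been removed, and each sinus piece kept some muscle of the adjoining tube. In such bulk RNA, fewer cells of a type and less RNA per cell cannot be told apart.

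Wnt proteins are secreted signals that bind Frizzled receptors at the cell surface. Secreted frizzled-related proteins carry a cysteine-rich domain like that of Frizzled but no membrane anchor, and they are known from vertebrates as extracellular Wnt binders that mostly antagonize the pathway. The symbols follow their vertebrate relatives, so that sfrp1/5 names a tunicate gene related to both SFRP1 and SFRP5, and sfrp3/4-b a gene related to SFRP3 and SFRP4. In the chick and frog embryo, Wnt antagonists favour the formation of heart tissue, and in the mouse Sfrp5 marks cells that contribute to the venous end of the heart. The genes sfrp1/5 and sfrp3/4-b were displayed by the study from these same libraries, so their directions here are not independent evidence. No coordinates or sequences are given, because none of the table's identifiers matched the reference gene table used here (0 matches).

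Levels were read as the FPKM values made by the authors, that is, adjusted read values per kilobase of gene, scaled by a size factor for each library. The depth is unknown, since the deposited read values had been adjusted and cover only the listed genes, with sums of 1412759 (PS replicate 2) to 1950483 (C replicate 2) per library and 782 to 787 genes above 0. Each comparison used limma on log2(FPKM + 1) over all 793 genes with Benjamini-Hochberg adjustment, and a gene was called at an adjusted p under 0.05. Between the PS and C, 59 genes were called (2 without C replicate 1, 0 without C replicate 2). Between the SS and C 13 were called (0 without either C or either SS library, 90 and 92 without PS replicates 1 and 2), between the sinuses 10 (0 or 1 without a C or SS library, 57 and 31 without PS replicates 1 and 2), and between both sinuses together and C 49 (0 or 1 without a C or SS library, 89 and 113 without PS replicates 1 and 2). Unadjusted p-values were under 0.05 for 185, 182, 118 and 210 genes. Nothing says whether both pools of a part came from separate sets of animals, so that p-values measure the spread between these libraries only.

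The most abundant of the 3 was sfrp1/5, with a mean of 1120 FPKM over the libraries, the place 79 from the top of the 793 genes. It was followed by sfrp3/4-b with 298 FPKM (place 191) and, far below, by sfrp2 with 19.5 FPKM (place 637). The median gene of the table stood at 83.8 FPKM.

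**Figure D1:**
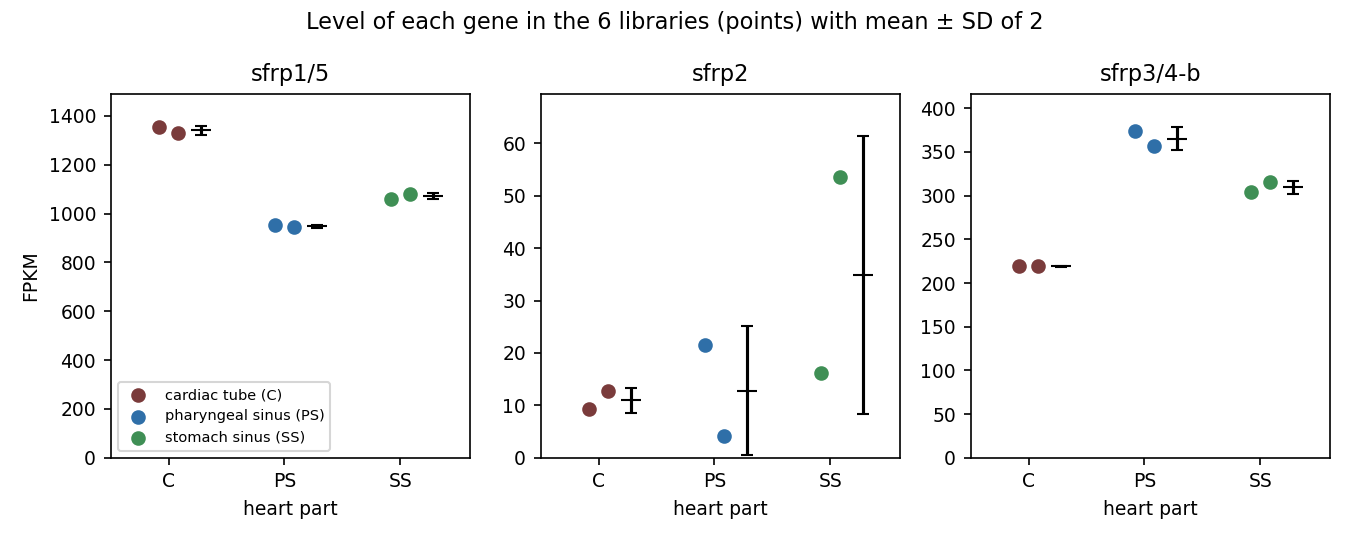
FPKM (y axes, each from 0) of sfrp1/5, sfrp2 and sfrp3/4-b in the cardiac tube (C), pharyngeal sinus (PS) and stomach sinus (SS). Points are the 2 libraries of each part and the bar beside them is their mean ± SD. Both C libraries lie above the 4 sinus libraries for sfrp1/5 and below them for sfrp3/4-b, and the parts overlap for sfrp2.

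The gene sfrp1/5 was highest in the cardiac tube, lowest in the pharyngeal sinus and in between in the stomach sinus. Its FPKM values were 1355 and 1328 in C, 953 and 944 in the PS, and 1061 and 1079 in the SS. The 3 parts did not overlap, and no pair of replicates differed by more than 1.02-fold. The share of all genes whose 3 parts lie apart in this way was not counted. The means were 1341 ± 18.7 FPKM in C, 949 ± 6.16 in the PS and 1070 ± 12.4 in the SS (SD, n = 2 each). These SDs, and those below, are of values that the authors had adjusted by removing a factor from the replicate differences. The spread before that step is not known. All 4 sinus libraries lay below both C libraries, as they did for 21.4% of the genes in the table.

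Relative to the cardiac tube, sfrp1/5 fell in the PS by 0.50 ± 0.10 on the log2 scale (SE), to 70.8% of the C level, with a 95% interval of -0.74 to -0.26 (limma adjusted p = 0.0405). It was 1 of the lower calls, which made up 2.4% of all genes, and 73 genes of the table had a more negative fold change. In the SS the fold change was -0.33 ± 0.10, or 79.8% of the C level, and did not pass (limma adjusted p = 0.13, interval -0.57 to -0.08). Lower calls there were 0.378% of all genes. With both sinuses set against C the gene fell by 0.41 ± 0.09 (limma adjusted p = 0.0491), beside 2.9% of genes called lower. These calls stood close to the threshold. Without 1 library in turn the fold change for the PS stayed between -0.52 and -0.48, while the adjusted p ranged from 0.0521 to 0.267 and so missed the threshold in all 6 cases. The call for both sinuses was likewise lost in all 6 (adjusted p = 0.0546 to 0.341). Those fits leave 1 residual degree of freedom.

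Between the sinuses, sfrp1/5 was at -0.17 ± 0.10 in the PS relative to the SS (limma adjusted p = 0.496). The 95% interval ran from -0.42 to 0.07, so a PS level of about the SS level and one lower by up to 0.42 on the log2 scale both lay within it. In the order of levels, C and the PS differed by the test, while the SS differed from neither of its neighbours at the adjusted threshold. Calls between the sinuses were 0.757% of genes higher and 0.504% lower in the PS, and none of the 3 sfrp genes was among them.

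The gene sfrp3/4-b had the opposite order. Its FPKM values were 220 and 219 in C, 374 and 356 in the PS, and 304 and 315 in the SS. Again no part overlapped with another, with the PS at the top and C at the bottom, a separation whose share over all genes was not counted. The means were 219 ± 0.525 FPKM in C, 365 ± 12.7 in the PS and 310 ± 7.65 in the SS (SD, n = 2 each). All 4 sinus libraries lay above both C libraries, as they did for 19.4% of the genes.

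In the PS sfrp3/4-b rose by 0.73 ± 0.11 on the log2 scale, to 166% of the C level, with a 95% interval of 0.46 to 1.01 (limma adjusted p = 0.0255). Higher calls were 5.04% of all genes, and 83 genes had a larger fold change. In the SS the fold change was 0.49 ± 0.11, or 141% of the C level (interval 0.22 to 0.77), and did not pass (limma adjusted p = 0.0962), where 1.26% of genes were called higher. With both sinuses together it rose by 0.61 ± 0.10 (limma adjusted p = 0.0304), beside 3.28% of genes. Without 1 library the fold change for the PS lay between 0.69 and 0.78. The call was lost without C replicate 1 (adjusted p = 0.216) or C replicate 2 (0.205) and was kept without any single sinus library (0.0224 to 0.0492). For both sinuses together it was also lost without SS replicate 1 (0.0677) or SS replicate 2 (0.0677) and without C replicate 1 (0.253) or C replicate 2 (0.261).

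The difference between the sinuses for sfrp3/4-b was 0.24 ± 0.11 in the PS relative to the SS (limma adjusted p = 0.412), with an interval of -0.04 to 0.51. The rise in the PS is thus not shown to differ from the value in the SS. The same C libraries enter both comparisons with the tube, so that the PS and SS fold changes of a gene are not independent of each other.

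**Figure D2:**
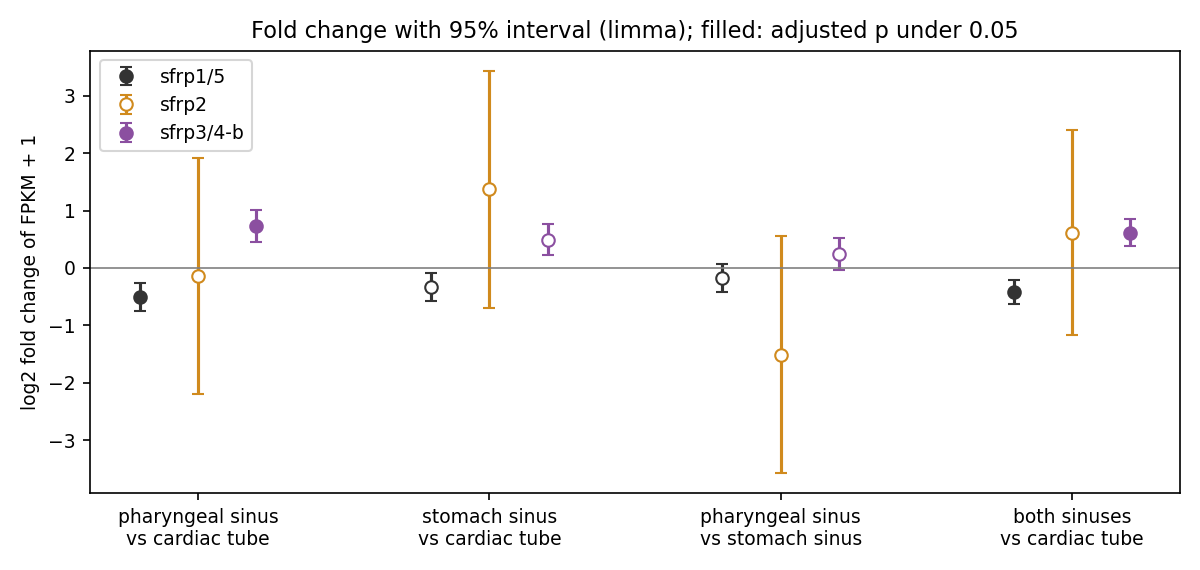
Log2 fold change of FPKM + 1 (y axis) of the 3 sfrp genes in the 4 comparisons (x axis), with 95% intervals from limma. Filled symbols have an adjusted p under 0.05. Intervals of sfrp1/5 and sfrp3/4-b are narrow and lie on opposite sides of 0 against the cardiac tube, and those of sfrp2 cross 0 in every comparison.

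The gene sfrp2 was scarce and variable. Its FPKM values were 9.24 and 12.7 in C, 21.5 and 4.13 in the PS, and 16.2 and 53.6 in the SS. The highest value was SS replicate 2 and the lowest PS replicate 2, and both C libraries lay between the 2 PS libraries. The replicates differed 1.37-fold in C, 5.21-fold in the PS and 3.32-fold in the SS, and in the PS only 3 of the 793 genes had a wider gap on the log2 scale. The adjusted read values behind these levels ran from 9 to 117, against 2273 to 3356 for sfrp1/5 and 219 to 377 for sfrp3/4-b.

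With all 6 libraries, no comparison of sfrp2 passed. Some fits without a PS library did pass, but they leave the PS with 1 library. The log2 fold change was -0.14 ± 0.84 in the PS (limma adjusted p = 0.931, interval -2.20 to 1.92) and 1.37 ± 0.84 in the SS (adjusted p = 0.384, interval -0.69 to 3.43), both against C. It was -1.51 ± 0.84 in the PS relative to the SS (adjusted p = 0.477, interval -3.57 to 0.55) and 0.62 ± 0.73 for both sinuses together against C (adjusted p = 0.635, interval -1.17 to 2.40). Differences in either direction lay within each interval. Leaving out single libraries moved the values. Such fits kept a term for a factor that the authors had removed, which also shifts the value of a group left with 1 library. Without SS replicate 2 the fold change in the SS was 0.19, and without SS replicate 1 it was 2.55. The value in the PS was 1.37 without PS replicate 2 and -1.65 without PS replicate 1. Without PS replicate 1 the PS stood at -3.02 relative to the SS, and without PS replicate 2 at 0.00. Both sizes include the shift from that term. Leaving out PS replicate 1 or PS replicate 2 kept the fold change of the SS against C at 1.37. For both sinuses together the value was -0.14 without PS replicate 1, 1.37 without PS replicate 2 and 0.02 without SS replicate 2. These values include the same shift, so the negative sign is not the effect of the left-out library alone.

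Since FPKM is per kilobase, the 3 genes can be added within a library. Their summed level was 1584 and 1560 FPKM in C, 1349 and 1305 in the PS, and 1382 and 1448 in the SS, with the tube above both sinuses. The make-up of the sum moved more than the sum itself. The share of sfrp1/5 was 85.5% and 85.1% in C, 70.7% and 72.4% in the PS, and 76.8% and 74.5% in the SS. The share of sfrp3/4-b was 13.9% and 14.0% in C, 27.8% and 27.3% in the PS, and 22.0% and 21.8% in the SS, and sfrp2 made up between 0.316% (PS replicate 2) and 3.70% (SS replicate 2).

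The ratio of sfrp1/5 to sfrp3/4-b, which does not depend on how a library is scaled, was 6.16 and 6.06 in C. It was 2.55 and 2.65 in the PS and 3.49 and 3.42 in the SS. The tube thus held about 6 units of sfrp1/5 for each unit of sfrp3/4-b, and the sinuses between 2.55 and 3.49. On the log2(FPKM + 1) scale the ratio was lower by 1.03 in the 4 sinus libraries than in C (exact two-sided permutation test, p = 0.0667, the smallest that 2 against 4 libraries can give, and 0.2 adjusted over the 3 ratios tested). It was lower in 4 of 4 sinus libraries. The ratios that involve sfrp2 overlapped between C and the sinuses (-1.03 for sfrp1/5 to sfrp2, exact permutation p = 0.4, and 0.00 for sfrp3/4-b to sfrp2, exact permutation p = 1, with adjusted values of 0.6 and 1).

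**Figure D3:**
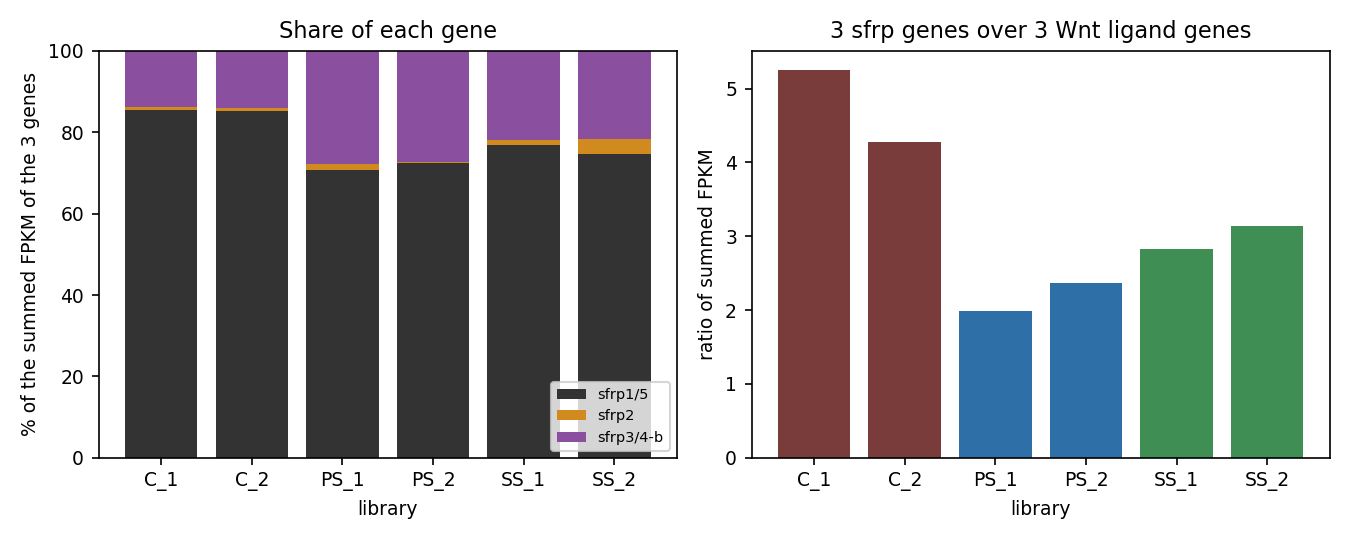
Left, the share of each sfrp gene in their summed FPKM (y axis, percent) in the 6 libraries (x axis). Right, the summed FPKM of the 3 sfrp genes divided by that of wnt3, wnt5 and wnt-a. The share of sfrp1/5 is 85.1% or more in C and at most 76.8% in the sinuses, and the ratio is 4.28 or more in C and at most 3.13 in the sinuses.

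The ligands that such antagonists can bind were represented in the table by wnt5, wnt3 and wnt-a. In vertebrates Wnt5a is known for signalling that does not act through beta-catenin. The gene wnt5 had FPKM values of 259 and 335 in C, 635 and 506 in the PS, and 444 and 404 in the SS, so that it was lowest in the tube, as was sfrp3/4-b. It rose in the PS (log2 fold change 0.94 ± 0.18, limma adjusted p = 0.0385) and did not pass in the SS (0.52 ± 0.18, adjusted p = 0.158). The fold changes of wnt3 were 0.61 ± 0.29 and 0.73 ± 0.29 and those of wnt-a -1.62 ± 0.48 and -0.68 ± 0.48 in the PS and the SS, and none of them passed (adjusted p = 0.106 to 0.453). Per summed FPKM of these 3 ligands, the summed sfrp level was 5.25 and 4.28 in C, 1.99 and 2.36 in the PS, and 2.83 and 3.13 in the SS. This ratio was highest in the tube and lowest in the PS with no overlap between the parts. It is given as a description with no test, and it covers only the sfrp and Wnt ligand genes that are listed. The share of other such ratios that separate the parts was not counted.

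The receptors showed no call. The fold changes of fz3/6 were -0.55 ± 0.19 in the PS and -0.69 ± 0.19 in the SS (limma adjusted p = 0.142 and 0.113) and those of fz4 -0.01 ± 0.19 and -0.22 ± 0.19 (adjusted p = 0.976 and 0.54). By its symbol, cifrz may be another Frizzled gene, and it stood at -0.09 ± 0.26 and -0.33 ± 0.26 (adjusted p = 0.905 and 0.51). The gene ror, named for a receptor tyrosine kinase that binds Wnt5a in vertebrates, was at 0.09 ± 0.28 and -0.07 ± 0.28 (adjusted p = 0.905 and 0.922).

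In all, 14 other symbols matched the list of Wnt pathway names. Against C, 1 of the 14 (wnt5) rose and none fell in the PS, beside 5.04% of all genes called higher and 2.4% called lower, so that the share of the list was near that of the table. Limma called none in the SS, between the sinuses or for both sinuses together. At an unadjusted p under 0.05 the counts, higher and lower, were 2 and 2 in the PS, 3 and 1 in the SS, 0 and 0 between the sinuses, and 4 and 2 for both sinuses together, against 185, 182, 118 and 210 of all 793 genes in either direction. The median log2 fold change of the list was 0.01 in the PS and -0.08 in the SS, beside 0.00 and 0.02 over all genes. Among the 14, tcfl1, pk1 and pk2 may not be Wnt genes, and pk1 and pk2 had nearly the same values in each library (97.1 and 97.0 FPKM in C replicate 1), so their reads may not be separate.

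A further 6 symbols that the list's spelling had missed (cifrz, dickkopf, cibeta-catenin, gsk, ck-1a1 and nemo-like) were added after their values could be seen, and limma called none of them in any comparison, with 0 higher and 2 lower at an unadjusted p under 0.05 in each comparison with C. Dickkopf proteins are secreted Wnt antagonists of another kind, which in vertebrates block the LRP co-receptors. The Ciona gene dickkopf had FPKM values of 166 and 170 in C, 161 and 192 in the PS, and 163 and 131 in the SS, and its log2 fold changes were 0.07 ± 0.17 and -0.20 ± 0.17 (limma adjusted p = 0.89 and 0.54). In each library its level lay below that of sfrp3/4-b and far below that of sfrp1/5.

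**Figure D4:**
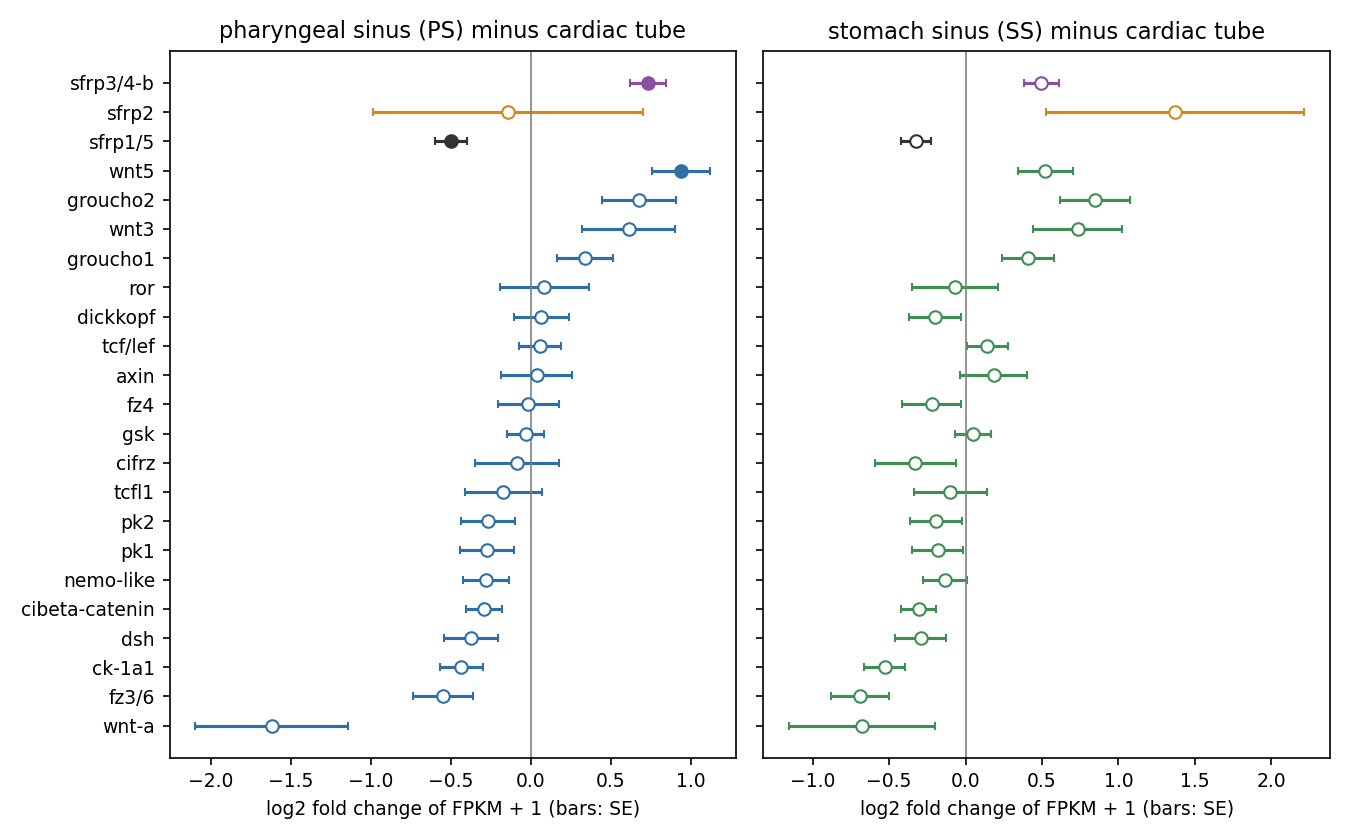
Log2 fold change of FPKM + 1 against the cardiac tube (x axes, bars SE) of the 3 sfrp genes (top) and 20 other Wnt-related symbols (y axis) in the PS (left) and the SS (right). Filled symbols have an adjusted p under 0.05. In the PS these are sfrp3/4-b (0.73), sfrp1/5 (-0.50) and wnt5 (0.94), and in the SS there are none.

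Markers of heart muscle were lower in the sinuses than in the tube, as was sfrp1/5, but not all in its order. The 4 listed symbols were tropm1 (tropomyosin), nk4 and hand (cardiac transcription factors) and irx-b (an Iroquois homeobox gene), and none was at 0 in any library. Their summed level was 9324 to 10184 FPKM in C, 7017 to 7386 in the PS and 7775 to 8092 in the SS. In the PS nk4 (-0.83 ± 0.13, limma adjusted p = 0.0255) and irx-b (-0.67 ± 0.12, adjusted p = 0.0285) fell, and hand (-0.43 ± 0.14, adjusted p = 0.135) and tropm1 (-0.41 ± 0.14, adjusted p = 0.148) did not pass. In the SS irx-b fell (-0.85 ± 0.12, adjusted p = 0.0438), and nk4 (-0.54 ± 0.13, adjusted p = 0.0962), hand (-0.30 ± 0.14, adjusted p = 0.282) and tropm1 (-0.26 ± 0.14, adjusted p = 0.322) did not pass. The levels of irx-b were 188 and 190 FPKM in the PS and 166 and 168 in the SS, the reverse of the order of the sinuses for sfrp1/5. Per unit of tropm1, sfrp1/5 was 0.149 and 0.161 in C, 0.15 and 0.14 in the PS, and 0.15 and 0.147 in the SS, so that C and the sinuses overlapped. Per unit of nk4 it was 2.22 and 2.16 in C and 2.43 to 2.95 in the 4 sinus libraries, above C. Over the 6 libraries the Pearson correlations of the 4 symbols with sfrp1/5 ran from 0.85 (irx-b) to 0.98 (nk4). With sfrp3/4-b they ran from -0.98 (hand) to -0.86 (irx-b). The part of a changed muscle content in the values of sfrp1/5 and sfrp3/4-b was not tested.

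Markers of other tissues were read beside sfrp3/4-b. The pharynx and endostyle list (3 symbols) summed to 156 to 158 FPKM in C, 343 to 1217 in the PS and 129 to 176 in the SS. Of these, pax3/7-like rose in the PS (4.34 ± 0.42, limma adjusted p = 0.00693), with 1.27 and 2.0 FPKM in C, 66.3 and 40.4 in the PS, and 1.60 and 1.26 in the SS, and both PS libraries stood apart from the others. The gene endostyle-specific stood at 128 and 1010 FPKM in the PS libraries and did not pass (adjusted p = 0.0583), and pax2/5/8-b did not pass either. The study's text ties endostyle specific genes to the endostyle but does not mention the Pax genes, so the call of pax3/7-like need not mark that tissue. The vanabins, vanadium-binding proteins of ascidian blood cells, summed to 10617 to 11254 FPKM in C, 12415 to 15208 in the PS and 7801 to 9786 in the SS over 4 symbols. None of the 4 passed in any comparison. The lower sum in the SS lay mainly with vanabin4 (-0.63 ± 0.22, limma adjusted p = 0.158), and the fold changes of vanabin1, vanabin3 and vanabin5 there were -0.02, -0.11 and 0.00. The 5 digestive tract symbols summed to 294 to 317, 317 to 326 and 341 to 388 FPKM in C, the PS and the SS, with hnf1 at 0 in part of the libraries. Among them hnf6 was at 0 in both C libraries, at 15.2 and 13.7 FPKM in the PS, where it was called (limma adjusted p = 0.00707), and at 0.188 and 0.198 in the SS. The genes gh18 and ciap, which the study ties to digestion in the SS, had other orders. The FPKM of gh18 were 32.2 and 23.6 in C, 11.8 and 5.91 in the PS, and 25.9 and 67.3 in the SS. Those of ciap were 92.7 and 73.8, 101 and 128, and 130 and 133. No digestive tract symbol but hnf6 was called in any comparison. The 6 vessel genes named by the study summed to 350 to 384 FPKM in C, 1142 to 1433 in the PS and 1150 to 1178 in the SS, and 4 of them rose in the PS and 3 in the SS, beside 5.04% and 1.26% of all genes (ipf1 was at 0 in a C library). The study had named these genes from these libraries, so their direction is no independent evidence. The part of any of these tissues in the values of sfrp3/4-b was not tested.

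All listed genes of the axoneme and of sperm but s-themis-a had their highest value in SS replicate 2, as did sfrp2. The 7 symbols summed to 76.3 to 94.8 FPKM in C, 49.5 to 106 in the PS and 197 to 548 in the SS, and none was at 0. The gene tektinA1, named for a protein of axonemal microtubules, had FPKM values of 15.8 and 18.6 in C, 23.7 and 5.52 in the PS, and 27.5 and 86.4 in the SS, which is the same order of libraries at the top and the bottom as for sfrp2. Over the 6 libraries its Pearson correlation with sfrp2 on log2(FPKM + 1) was 0.98, and those of the 7 symbols ran from 0.29 (s-themis-a) to 0.98. Their part in the values of sfrp2 was not tested.

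**Figure D5:**
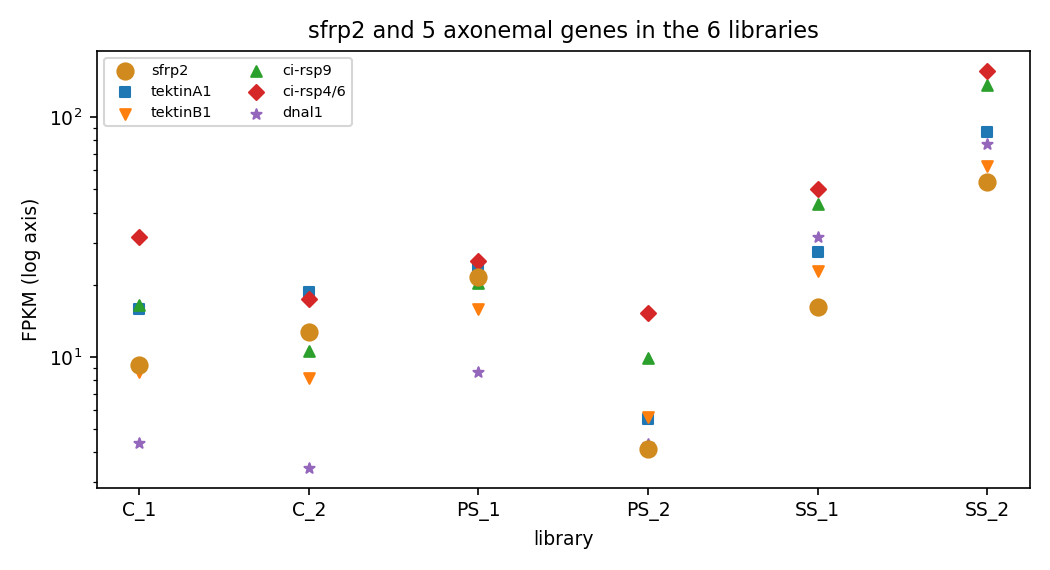
FPKM (log axis) of sfrp2 and of the axonemal genes tektinA1, tektinB1, ci-rsp9, ci-rsp4/6 and dnal1 in the 6 libraries (x axis). Each gene has its highest value in SS replicate 2, and sfrp2 reaches 53.6 FPKM there and 4.13 FPKM in PS replicate 2.

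The pattern most like each gene was sought among the 732 genes with a mean of at least 5 FPKM, by Pearson correlation over the 6 libraries. These values describe 3 pairs of libraries and carry no test. For sfrp1/5 the closest were xbpc, LOC100185771 and if-a (0.997, 0.992 and 0.992), of which if-a, by its symbol an intermediate filament gene, was the most abundant of the table in C (110117 and 118307 FPKM, against 39726 to 57531 in the sinuses). The most opposite pattern to sfrp1/5 was that of sfrp3/4-b itself (-0.99), ahead of LOC494357 and p47phox (both -0.99). For sfrp3/4-b the closest were LOC445704, p47phox and gpx_b (0.99 each), with p47phox named for a subunit of the NADPH oxidase and gpx_b for a glutathione peroxidase. Its most opposite patterns were those of LOC100177903, zf(bbox/ring)-6 and sfrp1/5 (-0.997, -0.994 and -0.992). Such values were not rare, since 23 genes for sfrp1/5 and 24 for sfrp3/4-b correlated above 0.95, and 24 and 23 below -0.95.

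For sfrp2 the closest patterns were those of tektinA1, ci-ak58 and zf(c2h2)-114 (0.98, 0.96 and 0.95), and the most opposite ones those of dickkopf, rev-erb and cdc42 (-0.96, -0.96 and -0.95). Above 0.95 there were 2 genes and below -0.95 there were 3. The correlation of sfrp2 with sfrp1/5 was -0.04 and with sfrp3/4-b 0.14, against -0.99 between sfrp1/5 and sfrp3/4-b.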

How the data were processed

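Adult Ciona robusta heart pieces were sequenced as 6 libraries. Per the study's methods, the authors used cutadapt for trimming, STAR with the UCSC genome ci3 for alignment, featureCounts (Subread) for counting of unique alignments, and RUVs with 1 factor in DESeq2, as set out there for zebrafish libraries, which were not analysed here. The annotation is not given in the sources used here. The deposited FPKM values, the authors' normalized levels, equal those adjusted values over size factor and gene length. The deposited columns headed as raw were treated as a score, because 1 weighted sum of the 3 replicate differences was near 0 in each of the 179 genes with a mean above 1000 (at most 0.000688, median difference 0.0835, natural log), so that a factor had been removed. The authors' fold changes and p-values for the comparisons, and their group means, were not used.

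limma 3.58.1 in R 4.3.3 was fitted to log2(FPKM + 1) with 3 groups, a term for the removed factor and a variance trend, with no filter, which left 2 residual and 4.02 prior degrees of freedom. The term, which the written design had also named, does not change fold changes when all 6 libraries are fitted. Without 1 library it also shifts the fold changes of the group that lost it. Ratios within libraries were compared by exact permutation tests. The genes, lists and settings were chosen with earlier results of these data known. Genes named are the members, the Wnt ligands, receptors and called list genes, the 3 most and least similar patterns and marker genes, with others added after their values were seen (dickkopf and 5 more symbols, and the axonemal genes plotted). Alternatives were the factor term, the trend, the pseudocount, a filter at a mean of 5 FPKM, adjusted values, upper-quartile scaling, a replicate block and each library left out.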

Additional observations from a re-analysis of the deposited data

How the results depend on the processing

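All 15 alternatives kept the sign of sfrp1/5 and sfrp3/4-b in each comparison. The gene sfrp2 changed sign in fits without single libraries, which kept the factor term, and in the PS with a pseudocount of 10 (0.01). It passed only in some fits without a PS library, which leave that part with 1 library. In all, 176 of 180 values kept their sign. The size for sfrp1/5 in the PS stayed at -0.50 without the trend (adjusted p = 0.165) and with the replicate block and the factor term together (0.166), and that of sfrp3/4-b at 0.73 (0.0993 and 0.129), so the calls were lost. For both sinuses together, sfrp1/5 at -0.41 lost its call without the trend (0.163), with the block and term (0.154) and with a pseudocount of 0.1 (0.0515) or 10 (0.0639) and without any 1 library (0.0546 to 0.341), and sfrp3/4-b at 0.61 without the trend (0.111) and with block and term (0.154). Without the factor term sfrp1/5 (-0.33, adjusted p = 0.0279) and sfrp3/4-b (0.49, 0.0224) passed in the SS as well. Without each library in turn, sfrp1/5 ranged from -0.52 to -0.48 in the PS and from -0.43 to -0.39 in both sinuses, sfrp3/4-b from 0.69 to 0.78 and from 0.59 to 0.64, and sfrp2 from 0.19 to 2.55 in the SS, -3.02 to 0.00 (-0.0026) between the sinuses and -0.14 to 1.37 in both sinuses.

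Counts of called genes were, for the PS, 151 without the factor term, 13 without the trend and 0 with block and term (0 to 79 without a library). For the SS they were 113, 0 and 0, with 2 at a pseudocount of 0.1 or 10, 26 with low genes left out, 32 with adjusted values and 21 with upper-quartile scaling (0 to 92). Between the sinuses they were 33 without the term, 2 at a pseudocount of 0.1, 3 with low genes left out, 17 with adjusted values and 0 with block and term (0 to 57), and for both sinuses 175, 1 and 0 (0 to 113). Without the term the SS split turned from 10 higher and 3 lower to 47 higher and 66 lower, and with adjusted values to 18 and 14, where the split between the sinuses was 12 and 5 in place of 6 and 4. The replicate numbers come with no stated pairing. Deviations of same-numbered libraries correlated at -0.46 to -0.54, but these values cannot speak to pairing. Removing the factor kept 1 weighted sum of the replicate differences near 0, which by itself pushes such correlations below 0. The replicate block in place of the term gave 61, 13, 10 and 49 calls, since the removed factor is nearly the difference between replicates 1 and 2 (weights 0.641, 0.531 and 0.554). Of the closest patterns of sfrp1/5 and sfrp3/4-b, all 3 remained at either pseudocount. The log2 ratio of sfrp1/5 to sfrp3/4-b lay between -1.10 and -0.95 over its alternatives, that of sfrp1/5 to sfrp2 between -1.60 (without PS replicate 2) and -0.53 (without SS replicate 2), and that of sfrp3/4-b to sfrp2 between -0.64 (without PS replicate 2) and 0.56 (without SS replicate 2). No interval for counting error could be set without the depth.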

Other observations

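The replicates of sfrp1/5 and sfrp3/4-b were closer than those of most genes. In C the libraries differed by 0.028 on the log2(FPKM + 1) scale for sfrp1/5 and by 0.0049 for sfrp3/4-b, where the median gene differed by 0.18, and only 16 of the 793 genes had a narrower gap than sfrp3/4-b. In the PS the gaps were 0.013 and 0.071 beside a median of 0.15, and in the SS 0.024 and 0.050 beside 0.20. The authors had taken 1 factor out of the replicate differences before these values were made, and how far that narrowed the gaps was not tested.

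The ratio of adjusted read value to FPKM gives the relative gene lengths the authors used. On the smallest scale that makes the lengths of all 793 genes whole numbers within 0.01, they were 1524 bases for sfrp1/5, 1381 for sfrp2 and 636 for sfrp3/4-b, with a median of 1954 over all genes. Only the ratios between these lengths are fixed by the data. The length used for sfrp3/4-b was thus the shortest of the 3, and levels between the genes rest on these lengths.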
